A study of Macaca fascicularis with 11 samples.

Results

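HAND1 and HAND2 are the pair of genes described here, in cultured monkey embryos. They are 2 of the 19367 genes of the deposited single-cell matrix and were found by their Ensembl identifiers, ENSMFAG00000000456 for HAND1 and ENSMFAG00000046008 for HAND2. The embryos came from the cynomolgus monkey, Macaca fascicularis, and were grown in vitro past the stage of implantation to Day 10, Day 12 or Day 14. Wild-type embryos were compared with ISL1 mutant embryos, made by injecting zygotes with Cas9 and 2 guide RNAs against ISL1, a LIM homeodomain transcription factor of the amnion and the heart fields. The mutant embryos were mosaic, so that cells with different ISL1 lesions were mixed within an embryo, and no reading of a cell's lesion was used here. There were 11 libraries, each of 1 to 3 embryos dissociated together. Wild type had 2 libraries for every day, and the mutant had 1 for Day 10, 2 for Day 12 and 2 for Day 14.

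HAND1 and HAND2 are basic helix-loop-helix (bHLH) transcription factors of the Twist family. They bind DNA as pairs with other bHLH proteins, most often the widely expressed E proteins such as TCF4, while ID proteins hold E proteins in pairs that cannot bind DNA. In the mouse, Hand1 is needed in trophoblast giant cells, in the extra-embryonic mesoderm of the yolk sac and amnion and in the heart, and Hand2 in the heart, limb bud and branchial arches. BMP signalling, which acts early in the amnion and mesoderm of primate embryos, is a known inducer of both genes in several tissues. No nucleotide or protein sequence of either gene was used here.

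A library held 325 to 9625 cells of the 33330 in the matrix and 36654977 to 164808415 unique molecular identifiers (UMIs, each standing for 1 captured transcript), and its median UMIs per cell ran from 10916 to 142180. Of 33205 different cell barcodes, 124 occurred in more than 1 library. Cells were clustered without HAND1, HAND2 and the related genes named further on, and clusters were named from marker lists as epiblast (Epi)-like, amnion-like, mesoderm-like, endoderm-like, extra-embryonic mesenchyme (ExE-Mech)-like and trophoblast-like. Levels are UMIs of the gene per 1000000 UMIs of all genes (CPM), summed over the cells of 1 type in 1 library. Types with under 5 cells in a library were left out. The median summed level of each type's own list was highest in that type, which the naming favours. The Epi list was 1388 to 2929 CPM in mesoderm-like cells against 4926 to 8090 in Epi-like cells. Primordial germ cell markers summed to 52.7 to 153 in amnion-like cells and 48.3 to 155 in Epi-like cells, and endothelial and blood markers to 81.5 to 115.6 in ExE-Mech-like and 24.3 to 622 in trophoblast-like cells. No cluster was named transition-like, a list that summed to 390 to 1203 in Epi-like cells. Unnamed clusters held 27.2% and 36.3% of the cells in the wild-type Day 10 libraries, 179 and 243 cells that scored highest for the trophoblast list. In sums over cells, fewer expressing cells and less RNA per cell cannot be told apart.

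ISL1, the targeted gene, was read first in the amnion-like cells. Its level at Day 14 was 81.8 and 149.9 CPM in the wild-type libraries and 211 and 186 CPM in the mutant libraries. In ExE-Mech-like cells, ISL1 was at 4.99 and 5.39 CPM in the wild type and at 1.05 and 0.406 CPM in the mutant at Day 14. Neither difference was called (edgeR log2 fold change 0.84 ± 0.37 SE with adjusted p = 0.283 in amnion-like and −2.75 ± 0.70 SE with adjusted p = 0.198 in ExE-Mech-like cells). The libraries read the 3′ ends of transcripts, which need not lie in the deleted stretch, so the ISL1 level does not check the genotype labels.

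HAND2 was found almost wholly in ExE-Mech-like cells. These cells made up 5.04% to 27.4% of the cells in the 8 libraries that had them and held 93.0% to 98.7% of each library's HAND2 UMIs. Their HAND2 level was 212 CPM in the 1 wild-type Day 12 library with such cells and 128 and 146 CPM in the Day 14 libraries. In the mutant it was 84.1 CPM at Day 10, 153 and 149 CPM at Day 12 and 110.4 and 167 CPM at Day 14. All 8 values lay above every other named type in every library, where the highest HAND2 level was 28.4 CPM. Unnamed cells, where a library had at least 5, reached 29.3 CPM, and 1 unnamed cluster of Day 14 held HAND2 at 44.1 and 39.1 CPM in the mutant libraries (25 and 9 cells). The 3 wild-type libraries without ExE-Mech-like cells had whole-library HAND2 levels of 0, 0.159 and 0.266 CPM, against 6.70 to 38.9 CPM in the other 8.

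**Figure D1:**
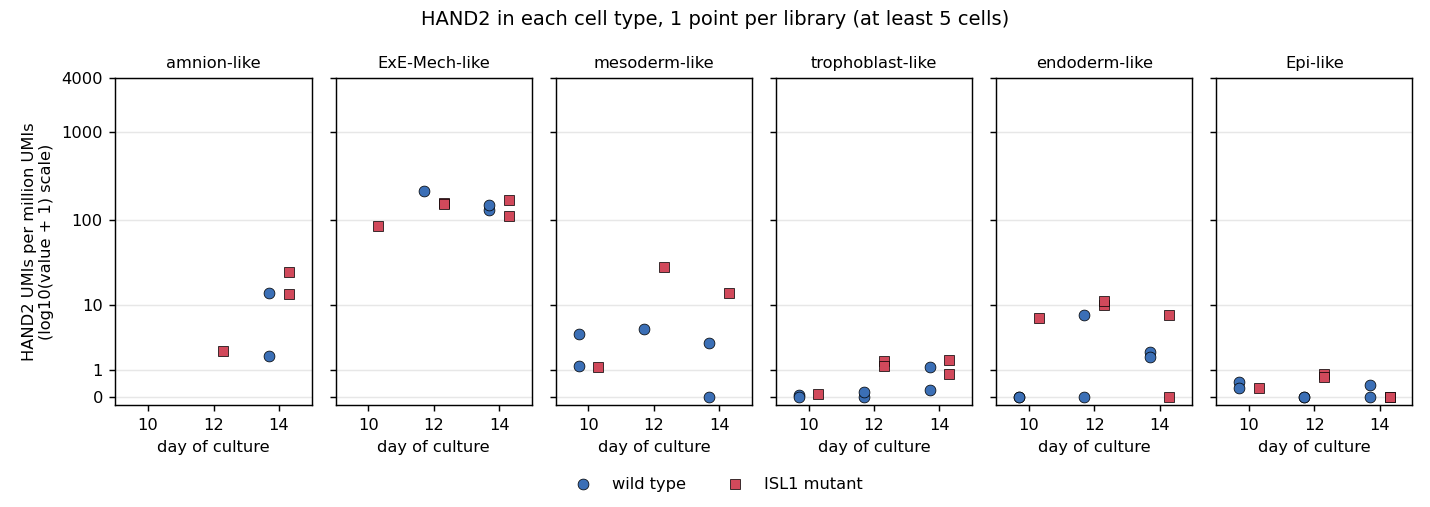
HAND2 level (CPM, on a log10(value + 1) axis) by day of culture in 6 cell types, with 1 point per library, circles for wild type and squares for the ISL1 mutant. The ExE-Mech-like points sit between 84.1 and 212 CPM, and no point of another type is above 28.4 CPM.

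Outside the ExE-Mech-like cells, HAND2 rested on few UMIs. In amnion-like cells it was 1.86 and 14.0 CPM in the wild-type Day 14 libraries (4 and 11 UMIs). In the mutant it was 2.28 CPM at Day 12 (1 UMI) and 13.4 and 24.8 CPM at Day 14 (8 and 24 UMIs). In mesoderm-like cells it was 4.16 and 1.23 CPM at Day 10, 4.85 CPM at Day 12 and 3.05 and 0 CPM at Day 14 in the wild type, where 0 of 391202 UMIs allows up to 7.67 CPM. In the mutant it was 1.18 CPM at Day 10, 28.4 CPM at Day 12 and 13.7 CPM at Day 14. The 28.4 and 13.7 CPM stood on 15 and 2 UMIs. Trophoblast-like cells ran from 0 to 1.62 CPM, endoderm-like cells from 0 to 11.1 CPM and Epi-like cells from 0 to 0.803 CPM.

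HAND1 was spread over more types. ExE-Mech-like cells held 28.6% to 77.1% of a library's HAND1 UMIs in the 8 libraries that had them and trophoblast-like cells 5.82% to 96.8% in the 11 libraries. In the wild-type Day 10 libraries the unnamed cells held 38.7% and 65.8% of the HAND1 UMIs, and elsewhere at most 12.3%. Amnion-like cells held it at 866 and 963 CPM in both wild-type libraries of Day 14 (1863 and 758 UMIs). In the mutant they held it at 2878 CPM at Day 12 and at 2076 and 1528 CPM at Day 14 (1242 and 1478 UMIs). ExE-Mech-like cells held it at 714 CPM in the wild-type Day 12 library and 376 and 530 CPM in the Day 14 libraries. In the mutant the ExE-Mech-like values were 1676 CPM at Day 10, 976 and 747 CPM at Day 12 and 283 and 137 CPM at Day 14. The mutant Day 14 values were the lowest of the 8 ExE-Mech-like values. The mutant amnion-like values were above the wild-type ones, which were of Day 14 alone. Of wild-type Day 12 there were 2 amnion-like cells, left out as too few, with HAND1 at 1807 CPM. At Day 14, 24.7% of tested genes were lower without overlap in mutant ExE-Mech-like cells and 24.9% higher in mutant amnion-like cells. Mesoderm-like cells held HAND1 at 2631 and 817 CPM at Day 10, 761 CPM at Day 12 and 335 and 251 CPM at Day 14 in the wild type. Mutant mesoderm-like cells held 2521 CPM at Day 10, 1562 CPM at Day 12 and 6.84 CPM at Day 14. The last of these was 1 UMI in 11 cells. The mesoderm list itself was lowest in the mutant Day 10 mesoderm-like cells, at 536 CPM, below their amnion list (564 CPM) and ExE-Mech list (540 CPM) and below the 665 CPM of the mesoderm list in the Epi-like cells of wild-type Day 14 replicate 2. In the 11 mutant Day 14 cells the mesoderm list was 2204 CPM, the ExE-Mech list 1122 CPM and the endoderm list 356 CPM.

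Trophoblast-like cells were the most numerous named type in 10 of the 11 libraries. They held HAND1 at 445 and 394 CPM in the wild-type Day 10 libraries, 85.4 and 84.8 CPM at Day 12 and 26.6 and 70.8 CPM at Day 14. In the mutant, the trophoblast-like HAND1 level was 88.9 CPM at Day 10, 44.7 and 28.3 CPM at Day 12 and 16.1 and 3.43 CPM at Day 14. At each day the mutant values lay below the wild-type values, the mutant Day 10 library alone standing for its group. Of all tested genes, 17% at Day 12 and 20.9% at Day 14 were likewise lower without overlap, and no share was computed for Day 10. In the trophoblast-like clusters with at least 5 cells in every Day 10 library, HAND1 was 26.8 to 148 CPM in the wild type and 30.2 to 131 CPM in the mutant. Endoderm-like cells ranged from 0 to 193 CPM of HAND1 and Epi-like cells from 0 to 25.4 CPM. Endoderm-like values at Day 14 were 2.64 and 5.42 CPM in the wild type (6 and 3 UMIs) and 4.91 and 5.93 CPM in the mutant (4 and 1 UMIs).

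**Figure D2:**
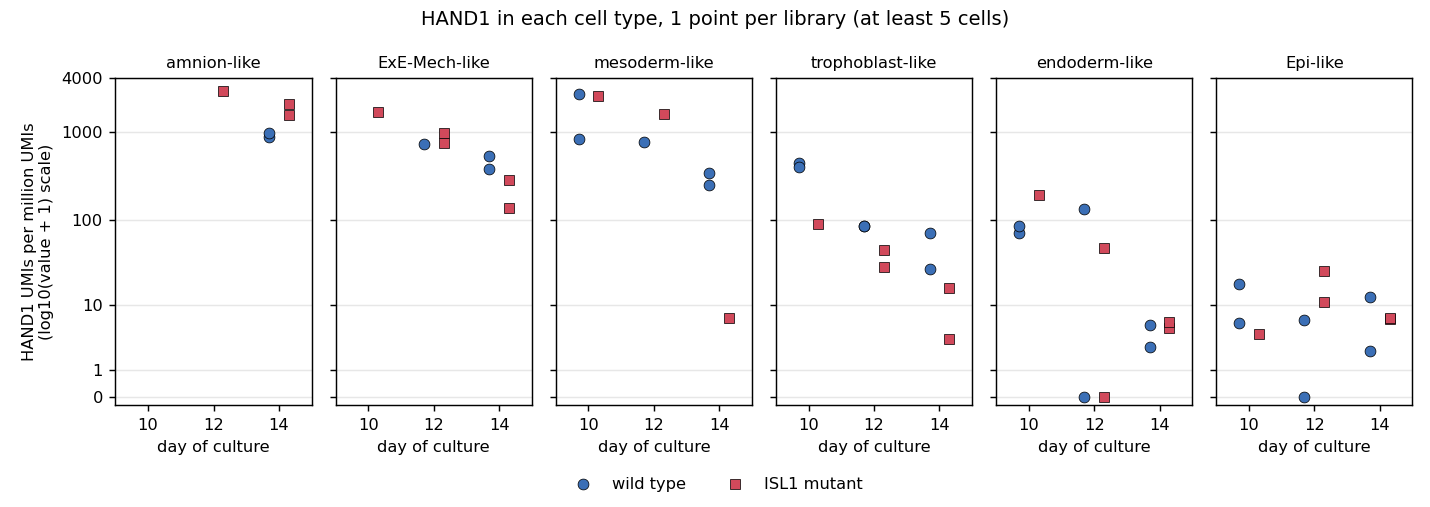
HAND1 level (CPM, on a log10(value + 1) axis) by day of culture in 6 cell types, with 1 point per library, circles for wild type and squares for the ISL1 mutant. Amnion-like points run from 866 to 2878 CPM, trophoblast-like points from 445 down to 3.43 CPM, and Epi-like points stay at or below 25.4 CPM.

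Cell types were compared within the Day 14 libraries by edgeR's quasi-likelihood test with the library as a block, and a gene was called at an adjusted p (Benjamini-Hochberg over all genes tested) at or below 1%. In the wild type, HAND1 was called higher than in trophoblast-like cells in amnion-like cells, by 4.21 ± 0.49 SE on the log2 scale (edgeR adjusted p = 6.3e-06). The same held for ExE-Mech-like (3.27 ± 0.47 SE, edgeR adjusted p = 3.6e-05) and for mesoderm-like cells (2.68 ± 0.47 SE, edgeR adjusted p = 0.000268). It was called lower in Epi-like (−3.30 ± 0.57 SE, edgeR adjusted p = 0.000153) and endoderm-like cells (−3.76 ± 0.73 SE, edgeR adjusted p = 0.000726). The share of all tested genes called in these 5 comparisons was 21.8%, 23.4%, 25.7%, 33.2% and 20.9%, so that a call between types was common. The order of HAND1 at Day 14 in the wild type was amnion-like, ExE-Mech-like and mesoderm-like, then trophoblast-like, then Epi-like and endoderm-like. The leading 3 were not told apart. The log2 difference was 0.94 ± 0.44 SE between amnion-like and ExE-Mech-like cells (edgeR adjusted p = 0.142, 12.2% of genes called). It was 0.59 ± 0.44 SE between ExE-Mech-like and mesoderm-like cells (edgeR adjusted p = 0.384, 12.9% of genes called). It was 1.53 ± 0.45 SE between amnion-like and mesoderm-like cells (edgeR adjusted p = 0.144, 0.299% of genes called). Without wild-type replicate 1, the HAND1 differences from trophoblast-like cells were 1.73 in mesoderm-like, −2.45 in Epi-like and −3.82 in endoderm-like cells and were no longer called (edgeR adjusted p = 0.0546, 0.0122 and 0.0109).

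In the mutant at Day 14, HAND1 was called higher than in trophoblast-like cells in amnion-like cells (log2 fold change 7.62 ± 0.58 SE, edgeR adjusted p = 1.3e-07, 20.7% of genes called). So it was for the mutant ExE-Mech-like cells (4.62 ± 0.51 SE, edgeR adjusted p = 1.7e-06, 26.6% of genes called). HAND1 was also called higher in amnion-like than in ExE-Mech-like cells (3.00 ± 0.47 SE, edgeR adjusted p = 0.000225), where 10.6% of genes were called. This call was lost when either mutant library was left out (3.33 with edgeR adjusted p = 0.0105 without replicate 1, and 2.67 with edgeR adjusted p = 0.0370 without replicate 2). Epi-like and endoderm-like cells were not called against trophoblast-like cells in the mutant (−0.37 ± 0.63 SE, edgeR adjusted p = 0.671, and −1.21 ± 1.02 SE, edgeR adjusted p = 0.415), in comparisons with 29.8% and 17.3% of genes called. Without mutant replicate 1 the Epi-like and endoderm-like values turned to 1.00 and 0.35, and without mutant replicate 2 they were −1.34 and −1.84. The mutant endoderm-like cells held only 4 and 1 UMIs of HAND1. The median difference of all genes was −0.11 in the mutant comparison of amnion-like with trophoblast-like cells and −0.15 in that of amnion-like with ExE-Mech-like cells.

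HAND2 separated the ExE-Mech-like cells from each type tested against them. Its log2 difference at Day 14 in the wild type was 8.07 ± 0.68 SE over trophoblast-like cells (edgeR adjusted p = 2.0e-07) and 5.34 ± 0.69 SE over mesoderm-like cells (edgeR adjusted p = 5.2e-05). It was −4.71 ± 0.69 SE for amnion-like over ExE-Mech-like cells (edgeR adjusted p = 0.000149). In the mutant, HAND2 was 6.86 ± 0.62 SE higher in ExE-Mech-like than in trophoblast-like cells (edgeR adjusted p = 3.9e-07) and differed by −3.01 ± 0.61 SE between amnion-like and ExE-Mech-like cells (edgeR adjusted p = 0.00227). The second of these was not called without mutant replicate 1 or replicate 2 (−2.90 and −3.25, edgeR adjusted p = 0.0509 and 0.0833). HAND2 in amnion-like cells was also called over trophoblast-like cells, by 3.36 ± 0.92 SE in the wild type (edgeR adjusted p = 0.00964) and 3.86 ± 0.72 SE in the mutant (edgeR adjusted p = 0.000670), on the few UMIs given above. The wild-type call of HAND2 in amnion-like cells was lost without any 1 of the 4 libraries, with edgeR adjusted p from 0.0153 to 0.106, and the mutant call without mutant replicate 2 (edgeR adjusted p = 0.160). Mesoderm-like cells were not called over trophoblast-like cells for HAND2 (2.74 ± 0.80 SE, edgeR adjusted p = 0.0129). They were called without wild-type replicate 2, which held 0 UMIs (3.71, edgeR adjusted p = 0.000719). Amnion-like and mesoderm-like cells did not differ by a called amount in HAND2 (0.63 ± 0.92 SE, edgeR adjusted p = 0.970). The list of ExE-Mech markers summed to 256 and 277 CPM in the wild-type and 650 and 1096 CPM in the mutant amnion-like cells. The HAND2 level was lowest and highest in the same libraries, and the part of these markers in it was not tested.

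**Figure D3:**
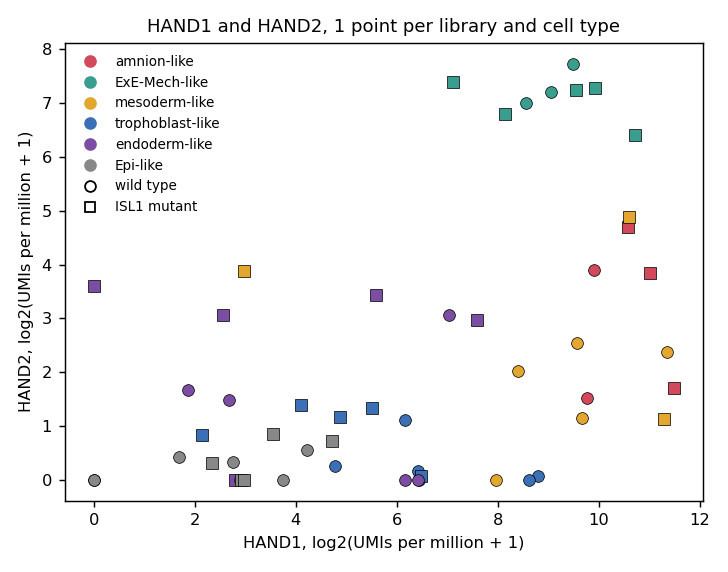
HAND2 against HAND1, both as log2(CPM + 1), with 1 point per library and cell type of at least 5 cells, coloured by type, circles for wild type and squares for the ISL1 mutant. ExE-Mech-like points are high on both axes, while amnion-like and most mesoderm-like points are high in HAND1 with HAND2 at or below 28.4 CPM.

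Detection was counted per cell after each cell had been thinned to 5000 UMIs. Among ExE-Mech-like cells, HAND2 was seen in 61.7% of cells in the wild-type Day 12 library and 42.5% and 48.9% in the Day 14 libraries. In the mutant the HAND2 share was 22.0% at Day 10, then 49.0% and 51.4% at Day 12, and lastly 40.1% and 53.5% at Day 14. The same share was 0% to 0.571% in trophoblast-like cells, which is read here as the background. It reached 5.56% in endoderm-like cells (4 of 72 cells in mutant Day 14 replicate 1). In mesoderm-like cells it was 0% to 2.63% in the wild type, while the mutant had 12% at Day 12 (3 of 25 cells) and 9.09% at Day 14 (1 of 11 cells). HAND1 was seen in 92.9% of ExE-Mech-like cells in the wild-type Day 12 library and 66.9% and 85.7% in the Day 14 libraries. In the mutant the HAND1 share was 100% at Day 10, then 95.1% and 92.2% at Day 12, and lastly 51.0% and 39.0% at Day 14. The HAND1 shares of the mutant Day 14 libraries were the lowest of the 8, while their HAND2 shares lay on either side of the wild-type Day 14 shares. Exact 95% binomial (Clopper-Pearson) intervals of the Day 14 HAND1 shares were 59.0% to 74.1% and 81.6% to 89.2% in the wild type and 48.9% to 53.1% and 36.1% to 42.03% in the mutant. The intervals cover counting error only, and the thinning left out 216 of 2481 shallower cells in mutant replicate 1.

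Cells with HAND2 but no HAND1 UMI made up 12.5% and 7.71% of ExE-Mech-like cells in the wild-type Day 14 libraries and 18.9% and 32.1% in the mutant Day 14 libraries. In the 4 libraries of Day 10 and Day 12 they were 0% to 5.10%. Cells with both genes made up 30.0% and 41.1% in the wild type and 21.1% and 21.5% in the mutant at Day 14. Within a library the share of cells with HAND1 was compared between cells with and without HAND2. HAND1 was seen in 70.6% and 84.2% of wild-type Day 14 cells with HAND2 and in 64.1% and 87.2% of those without it. In the mutant Day 14 libraries these shares were 52.8% and 40.1% with HAND2 and 49.8% and 37.7% without it. In 7 of the 8 libraries these shares differed by less than 4 percentage points between cells with and without HAND2, the exception being wild-type Day 14 replicate 1. In the 4 libraries of Day 10 and Day 12 the shares were 91.6% to 100% on both sides. Little difference could show there, so only the Day 14 libraries bear on the question.

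**Figure D4:**
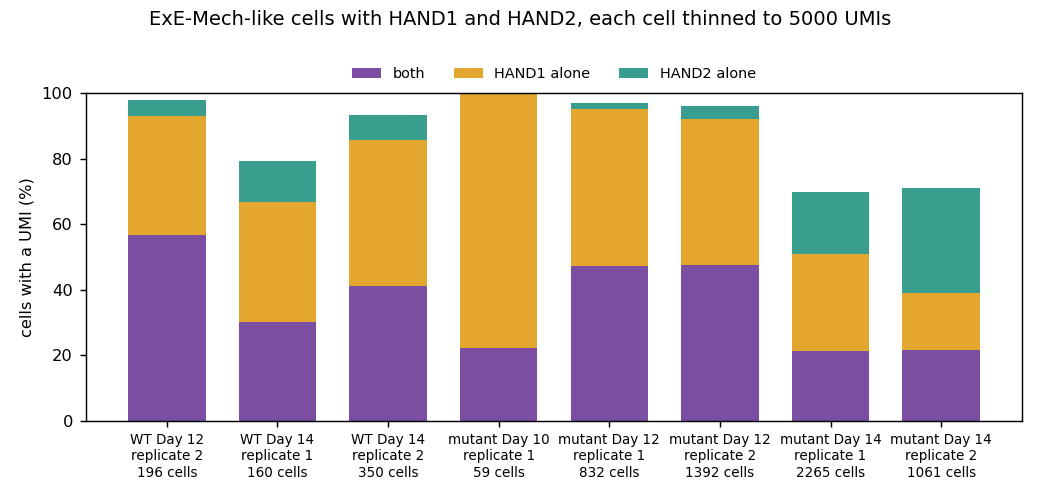
Share of ExE-Mech-like cells (percent) with a UMI of both genes, of HAND1 alone or of HAND2 alone in 8 libraries, each cell thinned to 5000 UMIs, as stacked bars. The part with HAND2 alone is 18.9% and 32.1% in the mutant Day 14 libraries and 12.5% or less in the others.

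In amnion-like cells HAND1 was seen in 71.4% and 71.4% of wild-type Day 14 cells, 100% of mutant Day 12 cells and 80.9% and 92.2% of mutant Day 14 cells. Thinning left out 25 of 72 cells in mutant Day 14 replicate 1. The exact intervals of the Day 14 shares overlapped, at 57.8% to 82.7% and 53.7% to 85.4% in the wild type and 66.7% to 90.9% and 81.1% to 97.8% in the mutant. HAND2 was seen in 0% to 5.88% of amnion-like cells, not separable from the highest endoderm-like share at this depth. Mesoderm-like cells with HAND1 were 95.8% and 78.9% at Day 10, 57.6% at Day 12 and 37.5% and 35.3% at Day 14 in the wild type, so that the wild-type share was lower at each later day. In the mutant it was 85.2% at Day 10, 84.0% at Day 12 and 0 of 11 cells at Day 14. In trophoblast-like cells the share with HAND1 was 45.0% and 42.01% at Day 10, then 25.7% and 28.0% at Day 12, and lastly 7.70% and 23.8% at Day 14 in the wild type. It was 28.1%, then 14.3% and 9.93%, then 4.81% and 0.997% in the mutant. Epi-like cells, at or below 25.4 CPM of HAND1 in every library, are set beside these values, with thinned shares of 0% to 5.15%. They are not a background free of HAND1. A Day 10 Epi-like cluster held it at 113 and 28.2 CPM in the wild-type libraries (17 and 25 cells). Others of Day 12 held 61.1 and 91.9 CPM in mutant replicate 2 (29 and 9 cells). Endoderm-like shares were 0% to 9.52%, the last being 2 of 21 cells of a wild-type Day 10 library with HAND1 at 84.8 CPM. The endoderm-like shares are not read as background either, since endoderm-like HAND1 could exceed trophoblast-like HAND1 (193 against 88.9 CPM in the mutant Day 10 library). In the Day 14 libraries the Epi-like shares were 0.330% and 3.28% in the wild type and 1.27% and 2.56% in the mutant. The trophoblast-like share of mutant replicate 2 was below its own library's Epi-like share, which rests on 39 cells, and is not told apart from that share. Its trophoblast-like clusters of at least 5 cells held HAND1 at 0 to 32.1 CPM, and 1 with 46 cells held 19.2 CPM (49 UMIs). The share of 7.70% in wild-type replicate 1 and that of 4.81% in mutant replicate 1 were above the Epi-like shares of the same libraries. The 4.81% was below the highest Epi-like share of 5.15%.

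The comparison of days asked how each gene changed as wild-type embryos were kept in culture. Clusters were found for each day apart, so a type is made of other clusters at each day, and a shift in its kinds of cells and a change within them cannot be told apart. HAND1 in trophoblast-like cells lay below both Day 10 libraries in both Day 14 libraries, with a log2 fold change of −3.15 ± 0.66 SE (edgeR adjusted p = 0.0229). Without wild-type Day 14 replicate 1 it was −2.67, and without replicate 2 it was −3.87. It missed the 1% threshold in a comparison where 1.76% of genes were called and 22.2% were lower without overlap. DESeq2 called it (−3.17, DESeq2 adjusted p = 4.42e-06), with 10.8% of genes called. Of the trophoblast-like clusters at Day 10, a cluster with at least 5 cells a library in the wild type only held HAND1 at 1615 and 2137 CPM (46 and 24 cells). Another of this kind held it at 1122 and 558 CPM (35 and 36 cells). The 4 trophoblast-like clusters with at least 5 cells in all 3 libraries held 26.8 to 148 CPM in the wild type and 30.2 to 131 CPM in the mutant. The 2 clusters with at least 5 cells in the mutant only held 81.1 and 12.7 CPM. With only those clusters that had a cell of each genotype, the Day 14 to Day 10 difference was −0.72 (edgeR adjusted p = 0.527). The unnamed clusters of the same wild-type Day 10 libraries held HAND1 at 660 and 846 CPM. Marker lists of other types moved with HAND1 in the trophoblast-like cells. The 11 mesoderm markers summed to 170 and 182 CPM in the wild-type Day 10, 7.04 and 5.37 CPM in the wild-type Day 14 and 7.76 CPM in the mutant Day 10 libraries. The 8 endoderm markers summed to 291 and 179 CPM at wild-type Day 10 against 27.6 and 6.11 CPM at Day 14, with 9.34 CPM in the mutant Day 10 library. The amnion list stood at 433 and 515 CPM against 210 and 291 CPM, and the Epi list at 188 and 187 CPM against 69.4 and 77.0 CPM. The 5 endothelial and blood markers stood the other way, at 24.3 and 28.0 CPM against 622 and 281 CPM. So did the trophoblast list itself, at 9798 and 7692 CPM against 15570 and 18783 CPM, with 15104 CPM in the mutant Day 10 library, and the ExE-Mech list, at 31.7 and 18.3 CPM against 33.5 and 92.8 CPM. The part of these lists in the HAND1 difference was not tested. HAND2 in trophoblast-like cells was at 1 and 0 UMIs at Day 10 and at 25 and 30 UMIs, 0.199 and 1.17 CPM, at Day 14, a difference that was not called (edgeR adjusted p = 0.108). The ExE-Mech-like cells were absent from the wild-type Day 10 libraries, and their part in those UMIs was not tested.

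HAND1 in mesoderm-like cells differed by −2.44 ± 0.52 SE between Day 14 and Day 10 (edgeR adjusted p = 0.0993), with no overlap of the libraries. In that comparison 0.0311% of genes were called and 28.5% were lower without overlap. Without wild-type Day 10 replicate 2 the difference was −3.08 and called (edgeR adjusted p = 1.9e-05), and without Day 10 replicate 1 it was −1.41 (edgeR adjusted p = 0.0422). The replicate number is the number after the letter B in the sample titles, and the study calls the collections batches. For an integration with in vivo cells its methods merged Days 10, 12 and 14 within each batch, so a batch spans the days there. Whether the genotypes share a batch is not stated. With the replicate number as a block, HAND1 was called (−2.27, edgeR adjusted p = 0.00819). The Day 10 libraries themselves were far apart, at 2631 and 817 CPM. The Day 10 cells came from 2 clusters with HAND1 at 1606 and 450.0 CPM in the first and at 2944 and 1532 CPM in the second. The Day 14 cells came from 2 others, of which the first, with at least 5 wild-type cells in replicate 1 alone, held 378 CPM there and the second held 226 and 243 CPM. Whether the clusters of both days hold the same kind of mesoderm, embryonic or extra-embryonic, was not tested. The mesoderm list summed to 1128 and 1422 CPM at Day 10 and to 2897 and 1644 CPM at Day 14, the trophoblast list to 228 and 313 CPM against 76.4 and 51.1 CPM and the endothelial and blood list to 30.9 and 38.0 CPM against 10.7 and 17.9 CPM. The part of these lists in the HAND1 difference was not tested. Between Day 14 and Day 12 the HAND1 difference was −1.21 ± 0.59 SE in mesoderm-like (edgeR adjusted p = 0.679) and −0.57 ± 0.41 SE in the ExE-Mech-like type (edgeR adjusted p = 0.680), with 1 Day 12 library in each. In trophoblast-like cells it was −0.86 ± 0.61 SE (edgeR adjusted p = 0.848), lower without overlap as were 10.2% of genes. HAND2 in ExE-Mech-like cells differed by −0.53 ± 0.33 SE between the same days (edgeR adjusted p = 0.634). No gene was called in these 3 Day 14 to Day 12 comparisons (0%), while 713, 1211 and 876 genes had an unadjusted edgeR p below 0.05. In endoderm-like cells HAND1 was 70.9 and 84.8 CPM at Day 10 and differed by −4.50 ± 1.49 SE at Day 14 (edgeR adjusted p = 0.303), where 0.0307% of genes were called and 19.3% were lower without overlap. There the mesoderm list summed to 1311 and 1475 CPM at Day 10 against 857 and 1073 CPM at Day 14, and the trophoblast list to 137 and 147 CPM against 447 and 1101 CPM. The part of both lists in this difference was not tested. In Epi-like cells HAND1 differed by −1.11 ± 0.92 SE between Day 14 and Day 10 (edgeR adjusted p = 0.579, 0.518% of genes called). The value was 0.054 without wild-type Day 14 replicate 1 and −2.29 without wild-type Day 14 replicate 2.

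The comparison of genotypes at Day 14 asked what the ISL1 mutation went with in each type. In amnion-like cells HAND1 was higher in both mutant libraries than in both wild-type libraries, with a log2 fold change of 1.02 ± 0.36 SE (edgeR adjusted p = 0.208). In ExE-Mech-like cells it was lower in both mutant libraries (−1.05 ± 0.34 SE, edgeR adjusted p = 0.238). It was also lower in the mutant trophoblast-like cells (−2.29 ± 0.64 SE, edgeR adjusted p = 0.203). The trophoblast-like value was −2.78 without wild-type replicate 1 and −1.54 without wild-type replicate 2, and it was −3.71 without mutant replicate 1 and −1.59 without mutant replicate 2. None of the 3 was called by edgeR. The share of genes called was 0.0129% in amnion-like, 0% in ExE-Mech-like and 0% in trophoblast-like cells, and an unadjusted edgeR p below 0.05 was reached by 1358, 2142 and 2109 genes. Libraries that do not overlap were common too, with 24.9% of genes higher in the mutant amnion-like cells, 24.7% lower in the mutant ExE-Mech-like cells and 20.9% lower in the mutant trophoblast-like cells. DESeq2 called HAND1 in trophoblast-like cells (−2.29, DESeq2 adjusted p = 0.00774), with 1.83% of genes called. In Epi-like cells the HAND1 difference was 0.39 ± 1.07 SE (edgeR adjusted p = 0.895, 0.0536% of genes called), at −0.77 without wild-type replicate 1 and 1.56 without wild-type replicate 2. In mesoderm-like cells 1 mutant library with 1 UMI in 11 cells stood against 335 and 251 CPM, and no test was made.

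**Figure D5:**
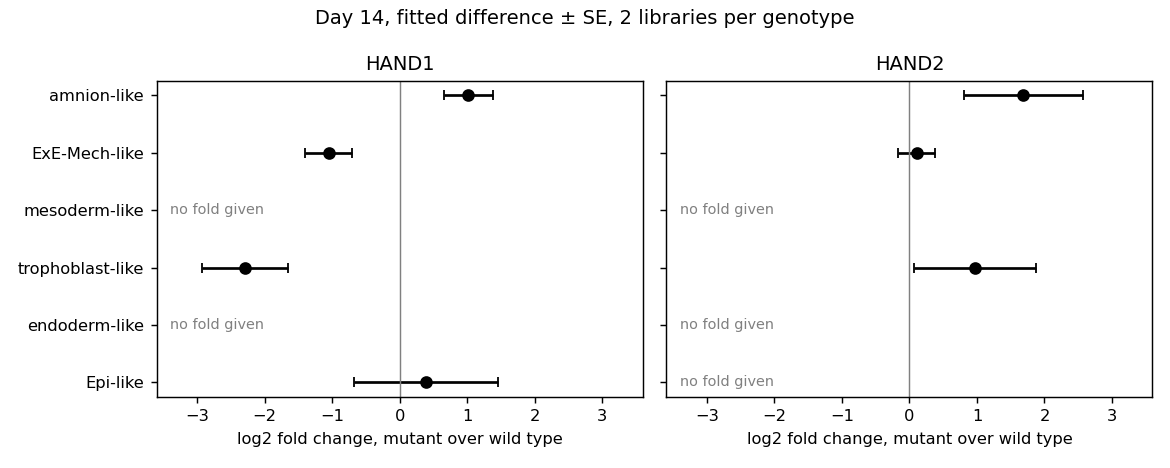
Fitted log2 fold change of HAND1 (left) and HAND2 (right) between mutant and wild type at Day 14 in each cell type, points with bars of 1 SE, 2 libraries per genotype. HAND1 lies at 1.02 in amnion-like, −1.05 in ExE-Mech-like and −2.29 in trophoblast-like cells, and no value was called by edgeR.

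The HAND1 difference in amnion-like cells depended on which clusters were taken. A cluster with 32 and 33 wild-type cells held HAND1 at 553 and 939 CPM in the wild type and at 1483 and 1154 CPM in the mutant (27 and 8 cells). A cluster mostly of wild-type replicate 1 and mutant cells held it at 1613 CPM in wild-type replicate 1 and at 2389 and 1673 CPM in the mutant. A cluster of 26 cells in mutant replicate 1, with under 5 in each other library, held it at 2654 CPM. Mutant replicate 1 also had 185 unnamed cells, 1.92% of that library, in 2 clusters that scored highest for the amnion list and held HAND1 at 549 and 568 CPM. With every cluster named by its highest list the HAND1 difference was 0.67 (edgeR adjusted p = 0.188). It was 0.91 with clusters that had a cell of each genotype (edgeR adjusted p = 0.429) and 0.47 with clusters found on principal components (edgeR adjusted p = 0.654). The amnion-like cells had a median of 33052 and 19830 UMIs in the wild-type and 7248 and 12687 UMIs in the mutant libraries, so the mutant cells were shallower, and the part of depth in the difference was not tested. The trophoblast marker list summed to 148 and 61.0 CPM in the wild-type and 658 and 646 CPM in the mutant amnion-like cells. The mesoderm list summed to 716 and 1046 CPM against 440 and 152 CPM, and the amnion list to 967 and 901 CPM against 849 and 785 CPM. The Epi list, of the type almost without HAND1, summed to 1572 and 2623 CPM in the wild type and 1250 and 831 CPM in the mutant. The ExE-Mech list, given above, and the endothelial and blood list, at 18.1 and 3.81 CPM against 35.1 and 26.9 CPM, were higher in both mutant libraries. The part of these lists in the HAND1 difference was not tested.

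In ExE-Mech-like cells the clusters also differed between libraries. Only 4 clusters had at least 5 cells in all 4 Day 14 libraries. Given as wild-type replicates 1 and 2, then mutant replicates 1 and 2, HAND1 was 562, 615, 369 and 136 CPM in the first. It was 288, 370, 239 and 131 CPM in the second and 427, 342, 451 and 169 CPM in the third. In the fourth, with 7 cells in wild-type replicate 1, it was 389, 463, 228 and 154 CPM. Mutant replicate 2 was the lowest in each, while mutant replicate 1 was the highest in the third. At Day 14 mutant replicate 2 was a library of 1 embryo, here and in the other types, and mutant replicate 1 of 3 embryos. Clusters with at least 5 cells in mutant replicate 1 alone held HAND1 at 151, 81.2 and 78.2 CPM and HAND2 at 116.1, 119 and 170 CPM in 398, 384 and 378 cells. With clusters that had a cell of each genotype the HAND1 difference was −1.003 (edgeR adjusted p = 0.303). That rule can keep a cluster almost wholly of the mutant. The difference over clusters with at least 5 cells of both genotypes was not tested. With all clusters of the type the HAND1 difference was −1.54 without mutant replicate 1 and −0.65 without mutant replicate 2. The ExE-Mech list itself summed to 3489 and 6631 CPM in the wild-type and 8067 and 12204 CPM in the mutant ExE-Mech-like cells. That order is opposite to that of HAND1 between genotypes. The 9 amnion markers in these cells summed to 10.8 and 16.04 CPM in the wild type, with 4 markers at 0 in each library, against 77.2 and 45.2 CPM in the mutant. The endothelial and blood list stood at 85.9 and 90.3 CPM against 99.5 and 101 CPM. The part of these lists in the HAND1 difference was not tested.

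HAND2 gave smaller differences between genotypes or rested on few UMIs. In ExE-Mech-like cells at Day 14 the HAND2 difference was 0.10 ± 0.27 SE (edgeR adjusted p = 0.861) with overlapping libraries, and it turned to −0.29 without mutant replicate 2. In amnion-like cells HAND2 differed by 1.68 ± 0.88 SE (edgeR adjusted p = 0.353) on 4 to 24 UMIs a library, and in trophoblast-like cells by 0.97 ± 0.90 SE (edgeR adjusted p = 0.656). Without wild-type replicate 1 these HAND2 values were 0.56 and 0.14, and without wild-type replicate 2 they were 3.40 and 2.52. Without mutant replicate 1 they were 2.15 and 0.43. The mutant difference was set against itself in amnion-like and ExE-Mech-like cells in 1 fit. For HAND1 the amnion-like difference exceeded the ExE-Mech-like difference by 2.06 ± 0.62 SE (edgeR adjusted p = 0.331), with values from 1.49 to 2.36 over the other settings tried, and 0.00788% of genes were called. For HAND2 the same quantity was 1.70 ± 0.96 SE (edgeR adjusted p = 0.723), at 0.41 without wild-type replicate 1 and 3.22 without wild-type replicate 2. Neither was called.

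At Day 12, HAND1 in ExE-Mech-like cells was 714 CPM in the wild-type library and 976 and 747 CPM in the mutant libraries, a difference of 0.32 ± 0.42 SE (edgeR adjusted p = 0.804). HAND2 differed by −0.43 ± 0.33 SE (edgeR adjusted p = 0.650). No gene was called there (0%), and 1415 genes had an unadjusted edgeR p below 0.05. In trophoblast-like cells HAND1 differed by −1.29 ± 0.61 SE (edgeR adjusted p = 0.443), lower in both mutant libraries, as were 17% of genes. HAND2 in the same cells was at 0 and 3 UMIs in the wild-type libraries and at 142 and 129 UMIs, 1.51 and 1.24 CPM, in the mutant libraries. The log2 fold change of 4.71 ± 1.21 SE was not called (edgeR adjusted p = 0.294), where 0.00668% of genes were called and 27.8% were higher without overlap. The HAND2 value was 9.40 without wild-type replicate 2, where the wild type was left at 0 UMIs, and 3.62 without wild-type replicate 1. The mutant Day 12 libraries had 13.9% and 23.9% ExE-Mech-like cells against 0% and 20.1% in the wild type, and the ExE-Mech list in the trophoblast-like cells was 48.0 and 56.9 CPM against 31.5 and 30.6 CPM. Their part in the trophoblast-like HAND2 UMIs was not tested. In mesoderm-like cells, with 1 library a genotype, HAND1 was 1562 CPM in the mutant and 761 CPM in the wild type (1.04 ± 0.70 SE, edgeR adjusted p = 0.840). HAND2 was 28.4 and 4.85 CPM (2.54 ± 1.28 SE, edgeR adjusted p = 0.807). The ExE-Mech list summed to 452 CPM in the mutant and 212 CPM in the wild-type mesoderm-like cells, and its part was not tested. The lone libraries were assumed to vary like the other groups. Epi-like cells held HAND1 at 0 and 6.41 CPM in the wild type and 10.6 and 25.4 CPM in the mutant (2.20 ± 0.96 SE, edgeR adjusted p = 0.449). There 0.00894% of genes were called and 23.1% were higher without overlap. In these Epi-like cells the trophoblast list was 149 and 342 CPM in the wild type and 671 and 1089 CPM in the mutant, and the endothelial and blood list 6.81 and 15.6 CPM against 36.7 and 47.2 CPM. The part of these lists in the HAND1 difference was not tested.

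The genes that HAND factors are known to work with or follow were read from 4 lists of 28 genes in all, of which 24 had an identifier here. The partners TCF3 and TCF12 and the relatives TWIST1 and TWIST2 had none. Identifiers came from gene tables of the study that reported these embryos, so the lists are not independent of these samples. In the mutant comparisons of Day 14 and Day 12, 0 of the 20 to 23 genes tested in a type were called by edgeR, nor did the background calls exceed 0.0536% of genes. Among the bHLH partners and inhibitors, TCF4 was higher than in trophoblast-like cells by 5.98 ± 0.40 SE in wild-type ExE-Mech-like cells at Day 14 (edgeR adjusted p = 2.2e-08) and by 6.51 ± 0.42 SE in amnion-like cells (edgeR adjusted p = 2.0e-08). TCF4 did not separate amnion-like from ExE-Mech-like cells (0.52 ± 0.33 SE, edgeR adjusted p = 0.293). The inhibitors did, with 3 of the 5 genes of that list higher in amnion-like cells and 0 lower. The list's median difference was 2.30 against −0.06 over all genes, and 12.2% of all genes were called. ID1 differed by 4.82 ± 0.83 SE (edgeR adjusted p = 0.000517), ID2 by 2.14 ± 0.44 SE (edgeR adjusted p = 0.00215) and ID3 by 2.44 ± 0.62 SE (edgeR adjusted p = 0.00929). ID4 was at 2.30 ± 0.83 SE and was not called (edgeR adjusted p = 0.0567).

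Of the 12 genes of the BMP pathway and its response, 5 were higher and 5 lower in wild-type ExE-Mech-like than in trophoblast-like cells at Day 14, and 6 were higher and 1 lower in amnion-like than in ExE-Mech-like cells. Of all genes, 23.4% and 12.2% were called in these comparisons. The ligand gene BMP4 was called in ExE-Mech-like (4.09 ± 0.55 SE, edgeR adjusted p = 1.6e-05) and in amnion-like cells (4.86 ± 0.56 SE, edgeR adjusted p = 5.0e-06) over trophoblast-like cells. It differed by 0.76 ± 0.49 SE between amnion-like and ExE-Mech-like cells (edgeR adjusted p = 0.297). MSX1, a homeobox target of BMP signalling, was higher in amnion-like than in ExE-Mech-like cells by 2.66 ± 0.41 SE (edgeR adjusted p = 0.000199). TWSG1, a BMP-binding protein, was the 1 gene of the list called lower there (−4.61 ± 0.56 SE, edgeR adjusted p = 2.1e-05). ISL1 was higher in amnion-like than in ExE-Mech-like cells by 4.28 ± 0.47 SE (edgeR adjusted p = 7.42e-06). GATA2, GATA3, DLX5 and DLX6, transcription factor genes of trophoblast among others, were called lower in ExE-Mech-like than in trophoblast-like cells, with log2 fold changes of −4.15, −4.05, −4.76 and −5.10 (edgeR adjusted p = 2.2e-05, 7.5e-06, 6.4e-06 and 1.5e-07). Within a type over time, 1 of the 22 genes of the 4 lists tested was called in trophoblast-like cells between Day 14 and Day 10, where 1.76% of all genes were called. It was GATA3, at −1.28 ± 0.19 SE (edgeR adjusted p = 0.00777).

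From the list of transcription factors of mesenchyme, PITX1, MEIS2, SNAI2 and ZEB2 were each called higher in wild-type ExE-Mech-like cells at Day 14 than in trophoblast-like cells and than in mesoderm-like cells, where 23.4% and 12.9% of all genes were called. PITX1 differed from mesoderm-like cells by 6.05 ± 0.65 SE (edgeR adjusted p = 7.13e-06). The difference was 4.01 ± 0.60 SE for MEIS2 (edgeR adjusted p = 0.000145), 4.34 ± 0.65 SE for SNAI2 (edgeR adjusted p = 0.000185) and 4.75 ± 0.68 SE for ZEB2 (edgeR adjusted p = 0.000156). In wild-type amnion-like cells SNAI2 and ZEB2 had 0 UMIs in both Day 14 libraries, against 73.4 to 87.2 CPM of SNAI2 and 48.4 to 102 CPM of ZEB2 in ExE-Mech-like cells.

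Across the 54 sums of a type in a library with at least 5 cells, the pattern of each gene was set against 1002 genes with a symbol and at least 100 UMIs, by Pearson's r of log2(CPM + 1). The genes most like HAND2 were TEK (r = 0.90), an endothelial receptor gene, HGF (0.89), the gene of hepatocyte growth factor, SNAI2 (0.88), COL6A3 (0.88) and ZEB2 (0.88). HGF and COL6A3 were among the markers that named the ExE-Mech-like clusters. Those most like HAND1 were HOXB6 (r = 0.75), TMSB4X (0.74), NRP2 (0.74), HOXB5 (0.73) and HOXB9 (0.72), 3 of them homeobox genes of the HOXB cluster. HAND1 and HAND2 had r = 0.48 with each other over the same sums. Sums of 1 library share its depth and embryos, and the symbols covered only the genes in the study's tables, so these values are a description.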

How the data were processed

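Cynomolgus embryo cells were sequenced in 11 libraries with 10x 3′ chemistry. The authors aligned reads with Cell Ranger 3.1.0 to Macaca_fascicularis_5.0, removed genes seen in under 3 cells and cells with high mitochondrial share, and deposited raw UMI counts and a matrix of estimated counts corrected for free RNA with SoupX. The corrected values were whole numbers and were used as counts. Cells were clustered by day (Seurat 5.3.0) and clusters named from marker lists, with a lowest score of 0.3, at least 3 detected markers and no other list ahead in the top 10 genes. The naming rule was adjusted after clusters were seen. Scrublet (scanpy 1.11.5) marked 0% to 2.38% of cells a library as doublets, which were kept. UMIs were summed per library and type and tested with edgeR 4.0.16 (R 4.3.3), two-sided, with TMM scaling and filterByExpr, at a false discovery rate of 1%. DESeq2 1.42.0, no filter, uncorrected counts, other clusters, cell minimums, doublet removal, a replicate block and leaving out libraries were alternatives. Only the Day 14 comparison of genotypes in amnion-like and trophoblast-like cells was tried on simulated data, with edgeR and DESeq2 in a fit of the Day 14 libraries alone. Fits across days used all libraries of a type. No fold is given where no group had more than 3 UMIs of the gene in each library, and a count of 0 allows up to 3 UMIs. Libraries were taken as replicates, and p-values measure only the spread between them. The members, lists and tests were chosen with earlier results of these data known. Named genes were HAND1, HAND2, some of the called members of the lists, ISL1, BMP4, the ID genes and the 5 genes most like each. Other called members of the lists are not named. A gene of the mesenchyme list is not reported here.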

Additional observations from a re-analysis of the deposited data

How the results depend on the processing

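Of the log2 fold changes recomputed, 793 kept their direction and their side of the 1% threshold, 22 turned round, 12 passed the threshold anew and 16 no longer passed it, and the cause of these changes was not tested. The alternatives with every cluster named by its highest list, with clusters that had a cell of each genotype and without marked doublets were chosen after seeing the data. Without a filter on low counts, HAND1 was called in Epi-like cells between genotypes at Day 12 (2.21). It was also called between Day 14 and Day 10 in endoderm-like (−4.51), mesoderm-like (−2.43) and trophoblast-like cells (−3.14), as was HAND2 in mesoderm-like over trophoblast-like cells (2.74). With the filter these folds were 2.20, −4.50, −2.44, −3.15 and 2.74, so the calls changed while the folds hardly did. The number of genes called without the filter alone is not given. Over all settings, the genes called in these comparisons numbered 0 to 249, 0 to 302, 0 to 374, 0 to 1615 and 599 to 3621, in the order given. DESeq2 called HAND1 in trophoblast-like cells between genotypes at Day 14 (−2.29) and between Day 14 and Day 10 (−3.17), lost HAND2 in mutant amnion-like against ExE-Mech-like cells (−2.91) and turned HAND2 in mesoderm-like cells between Day 14 and Day 10 (−0.18). Clusters on principal components turned HAND1 in Epi-like cells between genotypes at Day 14 (−0.055) and HAND2 in mesoderm-like cells between Day 14 and Day 12 (2.16) and called HAND2 in mesoderm-like over trophoblast-like cells (3.27). HAND1 in Epi-like cells between Day 14 and Day 12 turned with at least 20 cells (−0.23) and with the highest list (−1.61), and the call of HAND2 in wild-type amnion-like over trophoblast-like cells was lost under both (3.34 and 2.89) and with uncorrected counts (3.43). The sample titles carry the replicate number after a B, a batch of embryos by the study's account. The study's methods merged the days of a batch for an integration with in vivo cells, and whether genotypes share a batch is not given in the sources used here. Within a type, the log2 difference between replicate 1 and replicate 2 was taken for each gene and correlated over genes between 2 groups. Between genotypes of a day the r of these differences was −0.20 to 0.15. Between Day 12 and Day 14 it was 0.23 to 0.38 in the wild type and 0.026 to 0.43 in the mutant, a hint from the data. It was −0.24 and −0.29 between trophoblast-like cells of other genotype and day. With the replicate block, HAND1 in mesoderm-like cells turned between genotypes at Day 12 (−0.10) and was called between Day 14 and Day 10 (−2.27), and HAND2 there was −0.46; no other HAND1 or HAND2 call changed under the block. Between Day 14 and Day 10 it took the genes called from 3 to 57 in mesoderm-like, 3 to 7 in endoderm-like and 264 to 147 in trophoblast-like cells. Without marked doublets, HAND2 turned in wild-type Epi-like against trophoblast-like cells (1.66) and in mesoderm-like cells between Day 14 and Day 10 (−0.082) and was called in mesoderm-like over trophoblast-like cells (4.55).

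Leaving out each library in turn gave, for HAND1, −1.34 to 1.00 in mutant and −3.67 to −2.45 in wild-type Epi-like against trophoblast-like cells, −1.84 to 0.35 and −3.82 to −3.52 in endoderm-like cells likewise, and 1.73 to 3.46 in mesoderm-like cells. HAND1 in mutant amnion-like against ExE-Mech-like cells ran from 2.67 to 3.33. In Epi-like cells HAND1 ran from −0.77 to 1.56 between genotypes at Day 14, from −2.29 to 0.054 between Day 14 and Day 10 and from −0.63 to 8.35 between Day 14 and Day 12, and in mesoderm-like cells from −3.08 to −1.41 between Day 14 and Day 10. HAND2 ran from −0.29 to 0.47 between genotypes in ExE-Mech-like cells at Day 14, from −3.25 to −2.90 in mutant amnion-like against ExE-Mech-like cells and from −4.98 to 1.13 in mesoderm-like cells between Day 14 and Day 10. Against trophoblast-like cells HAND2 ran from −6.99 to 0.65 in wild-type Epi-like, −6.99 to 3.71 in mesoderm-like, 2.94 to 3.54 in wild-type and 2.81 to 4.85 in mutant amnion-like and −6.90 to 2.12 in mutant endoderm-like cells, and from −0.77 to 10.54 in amnion-like against mesoderm-like cells. Values far from 0 here are fits to a group left at 0 UMIs and are no bound.

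Without thinning, the Day 14 shares of ExE-Mech-like cells with HAND1 were 95.6% and 98.6% in the wild type and 63.5% and 69.0% in the mutant, those with HAND2 97.5%, 88.0%, 62.4% and 89.7%, and those with both 93.8%, 86.9%, 42.5% and 63.3%. Cell depth limits these shares, and HAND2 outside ExE-Mech-like cells rested on few UMIs. The number of genes called at Day 14 between genotypes ran from 1 to 386 in amnion-like, 0 to 216 in ExE-Mech-like and 0 to 274 in trophoblast-like cells over the settings, and in trophoblast-like cells between Day 14 and Day 10 from 0 to 1615.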
